A study of Mus musculus with 21 samples.

Results

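Mitochondrial ribosomal proteins were described through all gene symbols that begin with Mrpl (large subunit) or Mrps (small subunit) followed by a number. There were 77 such genes, 48 of the large and 29 of the small subunit, among 19938 genes that a probeset with a single gene symbol represents. All 77 passed the filter on low signals, which left 13956 genes to test. The members were taken by name and not by their values.

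The mitochondrial ribosome translates the few messages encoded by mitochondrial DNA, all of them for subunits of the respiratory chain and of ATP synthase. Its own proteins are encoded in the nucleus, made on cytosolic ribosomes and imported, and many have relatives in bacterial ribosomes while others are found in mitochondria only. In quiescent muscle stem cells mitochondria are few, and mTORC1, a kinase complex that senses nutrients and growth factors, is known to raise mitochondrial activity and protein synthesis.

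Expression was measured on Affymetrix Mouse Gene 1.0 ST arrays in YFP+ muscle stem cells sorted from mouse hindlimb muscle with no culture. In all groups, controls included, the animals carried Pax7CreER/+;Rosa26REYFP/+, were 3 to 5 months old and had received tamoxifen at least 2 weeks earlier. The Pax7-driven Cre thus marks, and deletes in, cells that expressed Pax7, a transcription factor of satellite cells. Contralateral cells (CSC) came from the limb opposite a BaCl2 injury, and quiescent cells (QSC) from noninjured animals. Wild-type groups were contralateral cells 2.5 days after injury (WT CSC at 2.5 days, 3 pools on 4 arrays), the same at 28 days, and WT QSC (3 pools on 5 arrays). The knockout groups were TSC1 KO QSC (TSC1flox/flox), Rptor KO CSC at 2.5 days, Rptor KO QSC (Rptrflox/flox), cMet KO CSC at 2.5 days and cMet KO QSC (cMetflox/flox). The strain was mixed C57BL6, and C57BL6 mixed FVB for the cMet KO animals, so that strain and cMet genotype cannot be told apart. Each pool held cells of 3 to 4 mice, and the 6 groups without a stated number of pools had 1 pool on 2 arrays. Such a group has no replicate check. Its test takes the spread from the WT pools.

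Tsc1 encodes an inhibitor of mTORC1, Rptor the mTORC1 subunit raptor, and Met the receptor of hepatocyte growth factor. Log2 signal of Tsc1 was 8.16 in TSC1 KO QSC against 8.34 to 8.69 in WT QSC. Rptor had 9.19 in Rptor KO QSC against 8.91 to 9.58 in WT QSC, and 8.85 in Rptor KO CSC against 9.43 to 9.84 in WT CSC at 2.5 days. Met had 10.25 in cMet KO QSC against 9.93 to 10.11 in WT QSC, and 10.13 in cMet KO CSC against 10.63 to 10.94 in WT CSC at 2.5 days. A probeset sums probes along the transcript, of which a conditional allele may remove a part, so these levels check no genotype label. Pax7 was between 10.26 and 12.10 in all 12 pools. Arrays of 1 pool correlated at 0.957 (Rptor KO CSC) to 0.996 across all 35556 probesets, and array medians ran from 7.03 to 7.21.

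At 2.5 days after a distant injury, genes of both mitochondrial ribosomal subunits rose in WT CSC relative to WT QSC. In pooled RNA, fewer cells of a type and less RNA per cell cannot be told apart. Of the 48 large subunit genes 34 were called higher and none lower, with a median difference of 0.77 on the log2 scale. Of the 29 small subunit genes 15 were called higher and none lower, with a median difference of 0.61. Across all 13956 genes 10.6% were called higher and 7.36% lower, and the median difference was -0.05 (limma, Benjamini-Hochberg adjusted p under 0.05, 3 pools against 3). The difference was above 0 in 45 large and 27 small subunit genes, against 43.2% of all genes. The pools of WT CSC all lay above those of WT QSC in 40 large and 23 small subunit genes, against 18.7% of all genes, and they lay below in none of the 77, against 19.1%. A change above 2-fold was seen in 15 large and 2 small subunit genes, and the share of all genes above 2-fold was not counted. The median over large subunit genes was 9.23, 9.10 and 9.19 in the WT CSC pools, against 8.33, 8.16 and 8.37 in the WT QSC pools. For the small subunit it was 8.76, 8.84 and 8.72 in WT CSC, against 8.17, 7.91 and 8.19 in WT QSC. Without WT CSC pool 3 the small subunit count was 8 and that of all members 31 instead of 49. Over all genes 837 instead of 1483 were then called higher. Of the 49 members, 30 were called whichever WT pool was left out.

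**Figure D1:**
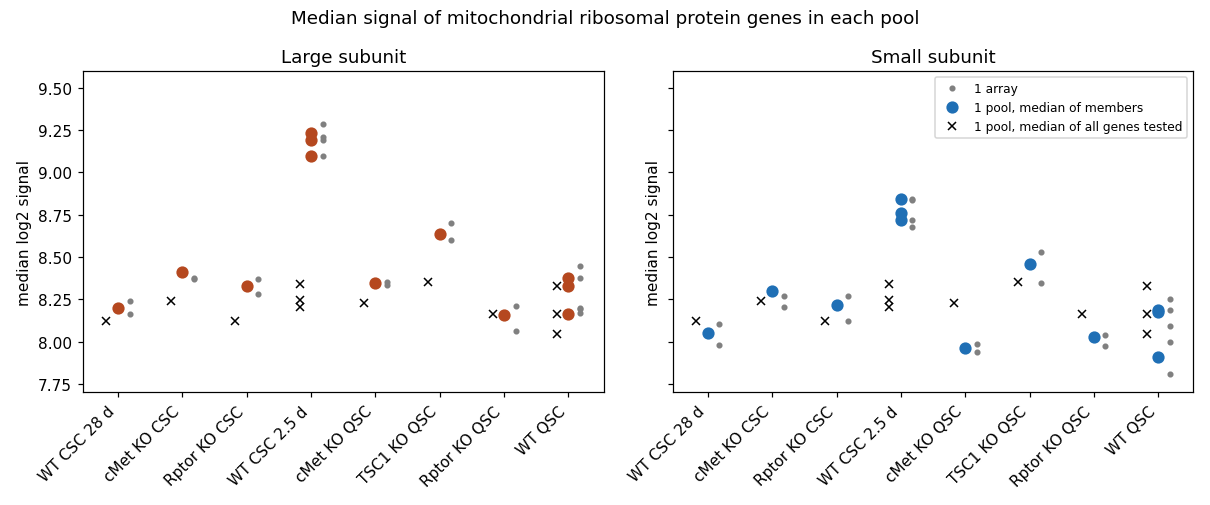
Median log2 signal of the 48 large subunit genes (left) and the 29 small subunit genes (right) in each of 8 groups. A filled point is a pool, a grey point an array and a cross the median of all genes tested in that pool. The WT CSC pools at 2.5 days lie at 9.10 to 9.23 (large) and 8.72 to 8.84 (small), above every other pool, and TSC1 KO QSC comes next at 8.64 and 8.46.

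Mrpl34, a relative of bacterial L34, differed most. Its log2 signals were 10.60, 9.96 and 10.06 in WT CSC at 2.5 days, against 8.52, 7.35 and 7.95 in WT QSC, a 4.81-fold change (2.27 ± 0.28, SE, adjusted p = 0.00129). The groups did not overlap, and the WT QSC pools were spread over more than 1 log2 unit. Mrpl18, a relative of bacterial L18, had 9.18, 8.87 and 9.16 in WT CSC, against 7.63, 7.38 and 7.71 in WT QSC, a 2.82-fold change (adjusted p = 0.000423). Mrpl40, of the central protuberance, had 10.52, 10.26 and 10.39 in WT CSC, against 9.08, 9.16 and 9.0 in WT QSC (1.31 ± 0.13). In both the WT CSC pools stood more than 1 log2 unit above every WT QSC pool. Mrpl11, at the base of the stalk that recruits translation factors, had 8.94, 8.91 and 9.15 in WT CSC, against 7.81, 7.39 and 7.88 in WT QSC (1.31 ± 0.16). Mrpl19 (1.25 ± 0.14) and Mrpl3 (1.21 ± 0.15), relatives of bacterial L19 and L3, followed, and all 6 pass the threshold.

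In the small subunit Mrps18c and Mrps22 stood ahead. Mrps18c, one of 3 mammalian relatives of bacterial S18, had log2 signals of 8.80, 8.84 and 8.72 in WT CSC at 2.5 days, against 7.09, 6.98 and 7.79 in WT QSC, a 2.83-fold change (SE 0.20 on the log2 scale, adjusted p = 0.0019). Mrps22, a protein of mitochondrial ribosomes only, had 9.53, 9.33 and 9.36 in WT CSC, against 7.95, 7.91 and 8.19 in WT QSC, a 2.63-fold change (1.39 ± 0.13, adjusted p = 0.000388). For both, the WT QSC pools lay below all WT CSC pools. Mrps33 (0.97 ± 0.16), Mrps7 (0.86 ± 0.19), Mrps35 (0.86 ± 0.15) and Mrps11 (0.84 ± 0.16) were the next in size and passed the threshold. Mrps7 and Mrps11 are relatives of bacterial S7 and S11, and Mrps33 and Mrps35 have none.

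**Figure D2:**
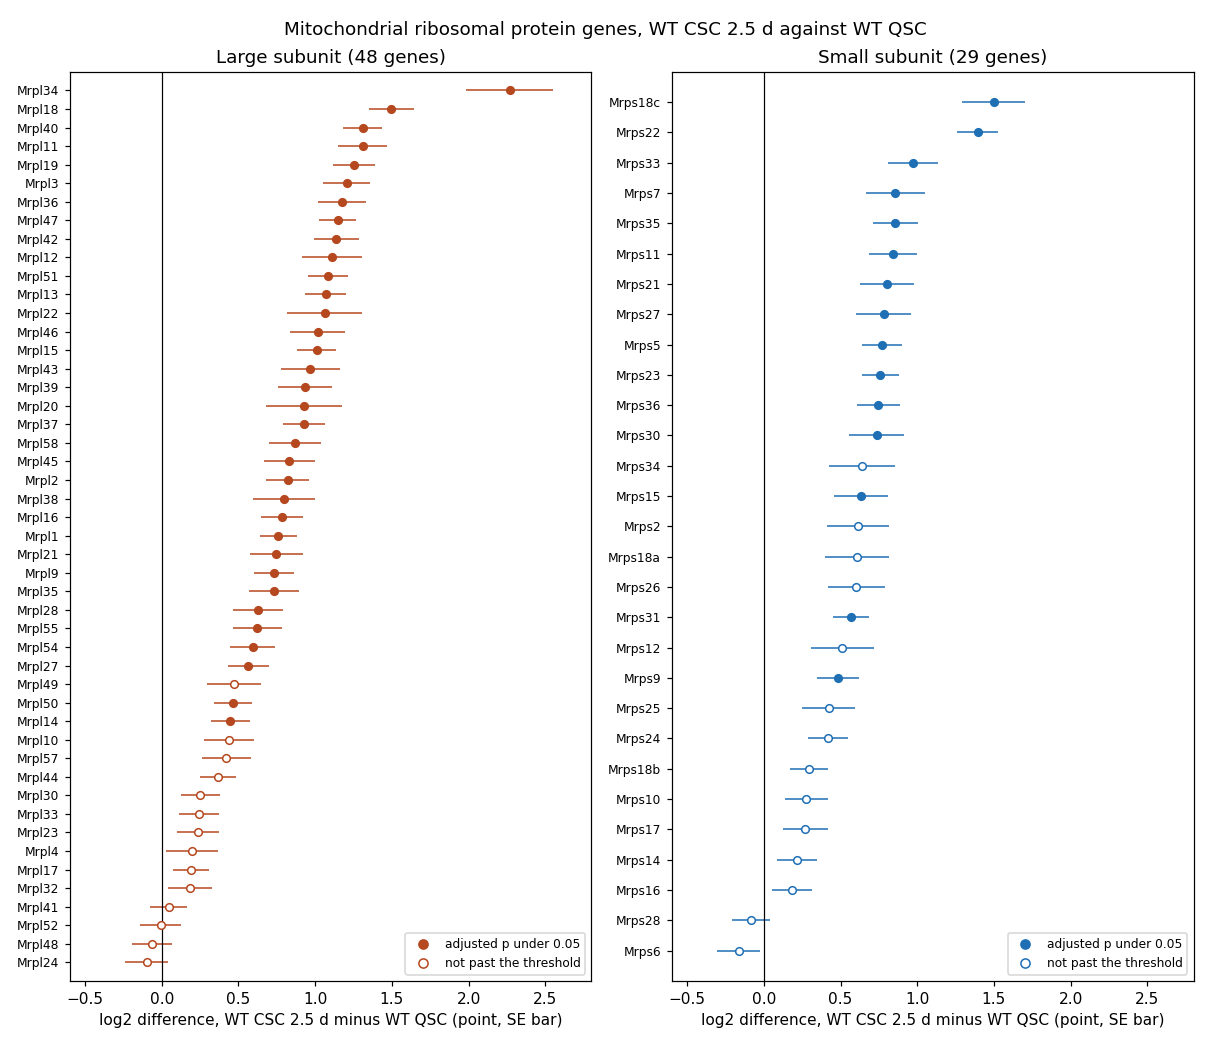
Log2 difference of each member, WT CSC at 2.5 days minus WT QSC (3 pools each), ranked within the large (left) and small (right) subunit, with SE bars. Filled points have an adjusted p under 0.05. The large subunit runs from -0.10 (Mrpl24) to 2.27 (Mrpl34) and the small subunit upward from -0.16 (Mrps6), with Mrps18c and Mrps22 at the top.

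The rise was not shared by all members. Mrpl52, found in mitochondria only, had 10.03, 10.04 and 9.96 in WT CSC at 2.5 days, against 10.20, 10.03 and 9.83 in WT QSC (-0.01 ± 0.14, SE, adjusted p = 0.978). Mrps6, a relative of bacterial S6, had 10.47, 10.15 and 10.21 in WT CSC, against 10.44, 10.57 and 10.32 in WT QSC (-0.16 ± 0.14, adjusted p = 0.471). The pools overlapped in both. Mrpl24 (-0.10 ± 0.14), which lines the exit tunnel, Mrpl48 (-0.06 ± 0.13), Mrpl41 (0.05 ± 0.12) and Mrps28 (-0.08 ± 0.12) differed by less than their SE. The other probeset of Mrpl41 differed by 0.50, so its place here depends on the probeset. Mrps16 differed by 0.18 ± 0.13. The signs of Mrpl24, Mrpl48 and Mrpl52 turned in some alternatives, as given below.

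The symbols do not always give a protein's place. Mrps30 and Mrps18a sit in the large subunit: Mrps30 rose by 0.74 ± 0.18 (SE, adjusted p = 0.0226), while Mrps18a differed by 0.61 ± 0.21 and did not pass (adjusted p = 0.0757). Mrps18b, the remaining S18 relative, differed by 0.29 ± 0.12 (adjusted p = 0.137). Among these 3 paralogues only Mrps18c was called, and the differences between them were not tested. Mrps36, now known as a subunit of the 2-oxoglutarate dehydrogenase complex, rose by 0.75 ± 0.14 (adjusted p = 0.00815). Placing the genes by structure gave 35 of 50 large and 13 of 26 small subunit genes called higher.

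By structural class, 22 of 30 large subunit proteins listed with a bacterial relative were called higher (median 0.75). Of the other 20, 13 were called higher (median 0.77). In the small subunit 7 of 16 listed with a bacterial relative were called (median 0.50) and 6 of the other 10 (median 0.70). The others were listed as found in mitochondria only. They include Mrps18a (large) and Mrps18b (small), however, which are relatives of bacterial S18 and were not called. Of 7 genes listed for the exit tunnel, where the new protein leaves, 3 were called (median 0.37). Of 5 listed for the central protuberance (Mrpl38, Mrpl40, Mrpl46, Mrpl48 and Mrpl55) 4 were called (median 0.80). Of 3 listed for the stalk and its base 2 were called (median 1.11). The counts cover the listed genes only. The classes were not tested against each other.

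Means over the 12 pools ran from 6.67 (Mrpl44) to 10.57 (Mrpl23) in the large and from 6.62 (Mrps36) to 10.47 (Mrps6) in the small subunit, as log2 signals of probesets that cannot be set against each other. Mrpl22 (6.71), Mrps17 (7.11) and Mrps18b (10.39) came next to these ends. Between pools of 1 group the median SD of a member was 0.102 (large) and 0.129 (small) in WT CSC at 2.5 days, against 0.171 and 0.15 in WT QSC. Of 8 members with several probesets, Mrpl23, Mrps5, Mrps33 and Mrps36 differed by similar amounts on both (0.24 and 0.31, 0.77 and 0.75, 0.97 and 0.85, and 0.75 and 0.74, in that order). Mrpl51 differed by 1.08 on the probeset used and 0.46 on the other, Mrpl27 by 0.56 and 0.33, and Mrpl41 by 0.05 and 0.50. Mrpl47 differed by 1.15 on the probeset used and -0.01 on the other, whose mean of 6.33 lies below the filter on low signals. A further probeset is shared by Ccdc142 and Mrpl53 and was left out. It had 7.94, 7.56 and 7.78 in WT CSC at 2.5 days, against 7.62, 7.30 and 7.60 in WT QSC, and the pools overlapped.

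The promoters of these genes are shown because members that moved together and members that did not can be read side by side. RefSeq windows of 300 bases around the annotated start (GRCm38.p6) were found for 68 of the 77. Below are the 250 bases before the start of the 2 members of each subunit with the largest differences (Mrpl34, Mrpl18, Mrps18c, Mrps22) and of 2 that did not pass the test (Mrpl52, Mrps6), and the 41 bases between the starts of Mrpl46 and Mrps11. Capitals mark CCGGAAG on either strand (read CTTCCGG on the other), the core bound by ETS factors such as GABP, and in Mrps18c also CACGTG, the E-box. In the last one they mark GGGCGG, the GC box bound by SP1.
Mrpl34 (chr8:71464676-71464925, plus strand): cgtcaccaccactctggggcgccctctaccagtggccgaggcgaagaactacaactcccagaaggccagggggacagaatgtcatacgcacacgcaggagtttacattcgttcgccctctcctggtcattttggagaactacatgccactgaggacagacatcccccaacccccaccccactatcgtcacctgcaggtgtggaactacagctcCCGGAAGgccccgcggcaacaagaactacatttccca
Mrpl18 (chr17:12916092-12916341, minus strand): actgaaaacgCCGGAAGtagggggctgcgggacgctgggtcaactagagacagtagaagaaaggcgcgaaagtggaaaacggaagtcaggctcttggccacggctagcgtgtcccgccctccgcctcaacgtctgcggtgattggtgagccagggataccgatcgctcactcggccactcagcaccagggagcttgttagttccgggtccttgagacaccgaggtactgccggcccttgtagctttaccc
Mrps18c (chr5:100798509-100798758, plus strand): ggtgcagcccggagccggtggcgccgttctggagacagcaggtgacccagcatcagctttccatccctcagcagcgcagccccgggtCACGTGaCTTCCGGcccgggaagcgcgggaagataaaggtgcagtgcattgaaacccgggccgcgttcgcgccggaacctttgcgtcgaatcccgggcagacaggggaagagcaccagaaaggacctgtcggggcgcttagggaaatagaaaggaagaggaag
Mrps22 (chr9:98601680-98601929, minus strand): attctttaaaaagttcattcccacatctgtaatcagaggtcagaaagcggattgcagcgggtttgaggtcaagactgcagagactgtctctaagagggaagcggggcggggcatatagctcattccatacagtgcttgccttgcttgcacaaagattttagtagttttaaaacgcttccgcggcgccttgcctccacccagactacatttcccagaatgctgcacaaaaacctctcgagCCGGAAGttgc
Mrpl52 (chr14:54426659-54426908, plus strand): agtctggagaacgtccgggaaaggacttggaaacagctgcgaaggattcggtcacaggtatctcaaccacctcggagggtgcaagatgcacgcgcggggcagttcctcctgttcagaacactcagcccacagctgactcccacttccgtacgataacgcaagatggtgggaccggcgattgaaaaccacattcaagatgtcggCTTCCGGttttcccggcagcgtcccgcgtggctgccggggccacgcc
Mrps6 (chr16:92058086-92058335, plus strand): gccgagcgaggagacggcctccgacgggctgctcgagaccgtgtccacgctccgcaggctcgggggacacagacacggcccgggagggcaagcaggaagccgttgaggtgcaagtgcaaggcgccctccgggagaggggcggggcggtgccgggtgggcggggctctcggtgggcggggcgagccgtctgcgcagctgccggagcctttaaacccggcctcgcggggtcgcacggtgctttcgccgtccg
Between Mrpl46 and Mrps11 (chr7:78783090-78783130, plus strand): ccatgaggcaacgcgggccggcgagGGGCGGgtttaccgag

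GABP, NRF1 and YY1 are background regulators of nuclear genes for mitochondrial proteins. CCGGAAG lay in the windows of 24 of 68 members (35.3%), against 16.1% of genes tested that have a window and 9.12% of all genes with one. AANATGGCG, as bound by YY1, lay in 16.2% of members, against 4.67% and 2.51%. The motif of NRF1 lay in 19.1%, against 9.34% and 4.78%. The GC box lay in 34 of 68, against 62.0% and 35.9%, and the E-box, bound by MYC and TFE factors, in 7.35%, against 9.74% and 7.24%. Both strands were searched. No motif contains another. Among members, CCGGAAG was in 34.9% of the 43 called higher in WT CSC at 2.5 days and in 36.0% of the 25 not called. YY1's motif was in 20.9% and 8.0%, that of NRF1 in 16.3% and 24.0%, and the GC box in 46.5% and 56.0%. The E-box was in 5 of the 43 and in none of the 25. These splits were not tested. Mrpl52, which did not pass the test, holds CCGGAAG, and Mrps6 does not. A match describes letters in a window and no binding.

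Mrpl46 and Mrps11 lie head to head on chromosome 7, and both rose in WT CSC. Mrpl46, of the central protuberance, had log2 signals of 8.63, 8.61 and 8.22 in WT CSC at 2.5 days, against 7.21, 7.44 and 7.76 in WT QSC (1.02 ± 0.18, SE, adjusted p = 0.00589). Mrps11 had 8.19, 7.92 and 8.05 in WT CSC, against 7.38, 6.93 and 7.32 in WT QSC. In neither gene did the groups overlap. In all, 23 members have such a neighbour. Of 18 tested neighbours that are no members, 7 were called higher and none lower (median 0.46), against 10.6% and 7.36% of all genes. For 4 of these 7 the member beside them was called higher as well, against 49 of all 77 members. Whether such pairs move together was not tested. The 7 include Ska3, a kinetochore gene beside Mrpl57 (1.57 ± 0.15, adjusted p = 0.000344), and Psma2, a proteasome subunit beside Mrpl32 (0.93 ± 0.14, adjusted p = 0.00305). Neither Mrpl57 (0.42) nor Mrpl32 (0.18) passed the threshold. Tcp1, a chaperonin subunit, rose by 0.57 ± 0.15 beside Mrpl18.

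Other genes of mitochondrial translation were also called higher in WT CSC at 2.5 days. Translation factors were called higher in 8 of 16 (median 0.48), among them the elongation factors Tufm (1.68 ± 0.20, SE, adjusted p = 0.000918) and Gfm1 (1.24 ± 0.17) and the RNA-stabilising Slirp (0.97 ± 0.14). Tufm had 10.43, 10.26 and 10.30 in WT CSC at 2.5 days, against 8.88, 8.18 and 8.90 in WT QSC. Of 24 assembly factors 6 were called higher (median 0.21), such as Fastkd2 (1.04 ± 0.13), an RNA-binding protein of large subunit assembly, and the GTPases Noa1 (1.14 ± 0.18) and Gtpbp10 (0.64 ± 0.13). Of 15 mitochondrial tRNA synthetases 5 were called higher (median 0.32), including Sars2, Tars2 and Rars2. Ribosomal proteins without an Mrpl or Mrps symbol were called in 3 of 4: Chchd1 (1.06 ± 0.17), Ptcd3 (1.04 ± 0.18) and Gadd45gip1 (0.97 ± 0.25), with Dap3 at 0.35 ± 0.16.

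Of 13 genes for mitochondrial transcription and its regulators, Tefm (0.67 ± 0.13, SE) and Polrmt (0.62 ± 0.15), an elongation factor and the RNA polymerase of mitochondria, rose and Gabpb1, a subunit of GABP, fell by 0.57 ± 0.12 in WT CSC at 2.5 days. Nrf1 (0.12), Gabpa (0.02), Yy1 (-0.04), Tfam (0.00), Myc (-0.23) and Ppargc1a (-0.38) did not pass. Subunits of complexes I, III, IV and V were called higher in 37 of 68 (median 0.52). Of 60 cytosolic ribosomal proteins 1 was called higher, Rps27l, and the median was -0.02. These lists were compared by their counts only.

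Markers of other cells and of the cell cycle moved with these genes in WT CSC at 2.5 days. Of 9 tested proliferation markers 8 were called higher, with a median difference of 2.05 and medians of 10.12 to 10.52 in the WT CSC pools, against 8.23 to 8.40 in the WT QSC pools. Endothelial markers were called lower in 8 of 12 (median -1.13) and fibro-adipogenic markers in 5 of 10 (median -0.68), satellite cell markers were lower in 5 of 12 (median -0.52), fibre markers higher in 3 of 10 (median 0.38), and none of 10 macrophage markers was called. Their part in the result was not tested.

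At 28 days after the injury no difference from noninjured animals passed the test. No member was called in WT CSC at 28 days against WT QSC, with 0 of all 13956 genes called in either direction (limma), and at an unadjusted p under 0.05 there were 3 large and 1 small subunit genes lower and none higher, against 3.20% of all genes lower and 1.36% higher. The median difference was -0.13 for the large and -0.11 for the small subunit. The pool lay below all WT QSC pools in 18 large and 10 small subunit genes and above them in 9 and 3, against 19.0% and 19.8% of all genes. Mrpl52 was at 9.05 in the 28-day pool, against 9.83 to 10.20 in WT QSC (-0.97 ± 0.19, SE, adjusted p = 0.385), below every other pool. Mrpl42 (-0.69), Mrps28 (-0.77) and Mrps26 (-0.55) were also at the low end, and Mrpl1 (0.32), Mrpl40 (0.28), Mrps27 (0.33) and Mrps6 (0.37) at the high end. Endothelial markers had a median difference of -1.16 (0 called) and proliferation markers one of -0.20, and their part was not tested.

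Set against WT CSC at 2.5 days, the 28-day pool was lower in 26 of 48 large subunit genes (median -0.88) and 14 of 29 small subunit genes (median -0.79), with none higher. Of all genes 6.32% were called lower and 2.06% higher. The difference was above 0 in 2 large and 1 small subunit genes, against 54.6% of all genes. The pool lay above all WT CSC pools in 1 gene of each subunit, against 39.8% of all genes. No large and 1 small subunit gene was higher at an unadjusted p under 0.05, against 9.90%. This comparison shares the 2.5-day pools with the one above and adds no independent evidence of their height. Mrpl34 fell to 7.31 at 28 days, against 9.96 to 10.60 at 2.5 days (-2.90 ± 0.40, SE, adjusted p = 0.00424). Mrpl42 fell to 5.95, against 7.67 to 7.84 (-1.83 ± 0.21), Mrpl11 to 7.20, against 8.91 to 9.15, and Mrps18c to 7.27, against 8.72 to 8.84 (-1.52 ± 0.29). Mrpl48 (0.14), Mrpl17 (0.01), Mrps6 (0.53) and Mrps25 (-0.18) were at the other end. Leaving out WT CSC pool 1, 2 or 3 gave 17, 14 and 12 large and 7, 4 and 2 small subunit genes lower.

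**Figure D3:**
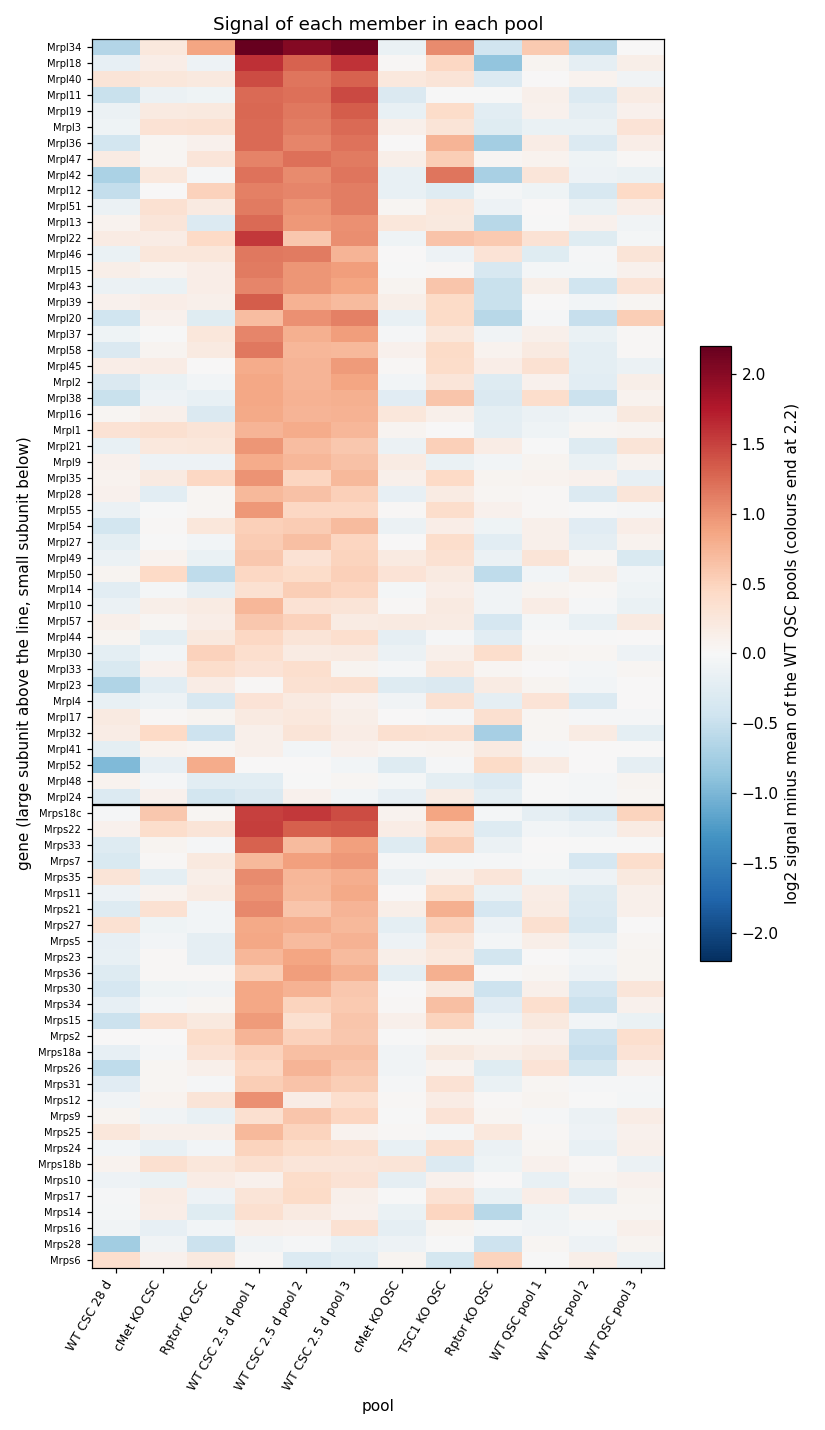
Log2 signal of each member minus the mean of the WT QSC pools, in each of the 12 pools (columns), with rows ordered by the difference of WT CSC at 2.5 days within the large subunit (above the line) and the small subunit (below). The WT CSC pools at 2.5 days are red in most rows, while the 28-day and knockout pools are pale or mixed.

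In TSC1 KO QSC no member passed the threshold against WT QSC. The median difference of TSC1 KO QSC against WT QSC was 0.24 for the large and 0.28 for the small subunit, against 0.04 for all genes, and 39 of 48 and 24 of 29 differences were above 0, as were 56.3% of all genes. Of all genes 0.0143% were called higher and 0% lower. At an unadjusted p under 0.05, 4 large and 5 small subunit genes were higher and none lower, against 7.07% and 1.75% of all genes. Mrpl42, found in mitochondria only, had 7.81 in TSC1 KO QSC, against 6.91, 6.53 and 6.49 in WT QSC (1.17 ± 0.21, SE, adjusted p = 0.151), and its 2 arrays read 7.80 and 7.83. Mrpl34 had 8.99, against 8.52, 7.35 and 7.95 (1.05 ± 0.40). Both lay above all WT QSC pools without passing the test, as did 31 large and 17 small subunit genes in all, against 30.3% of all genes.

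Mrps18c had 8.16 in TSC1 KO QSC, against 7.09, 6.98 and 7.79 in WT QSC (0.87 ± 0.29, SE), and Mrps36 7.19, against 6.45, 6.30 and 6.46 (0.79 ± 0.20). Mrpl23 (-0.32), of the exit tunnel, Mrpl12 (-0.26), the stalk protein, Mrps6 (-0.40) and Mrps18b (-0.30) were at the low end. Subunits of complexes I, III, IV and V had a median difference of 0.45 and cytosolic ribosomal proteins one of -0.21, with 0 called. In the same pool mature fibre markers were above 0 in 10 of 10 (median 0.49) and satellite cell markers in 11 of 12 (median 0.34), with 0 called, and Ppargc1a, a coactivator of mitochondrial genes, differed by 2.11 ± 0.36 (adjusted p = 0.13). Their part in the result was not tested.

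**Figure D4:**
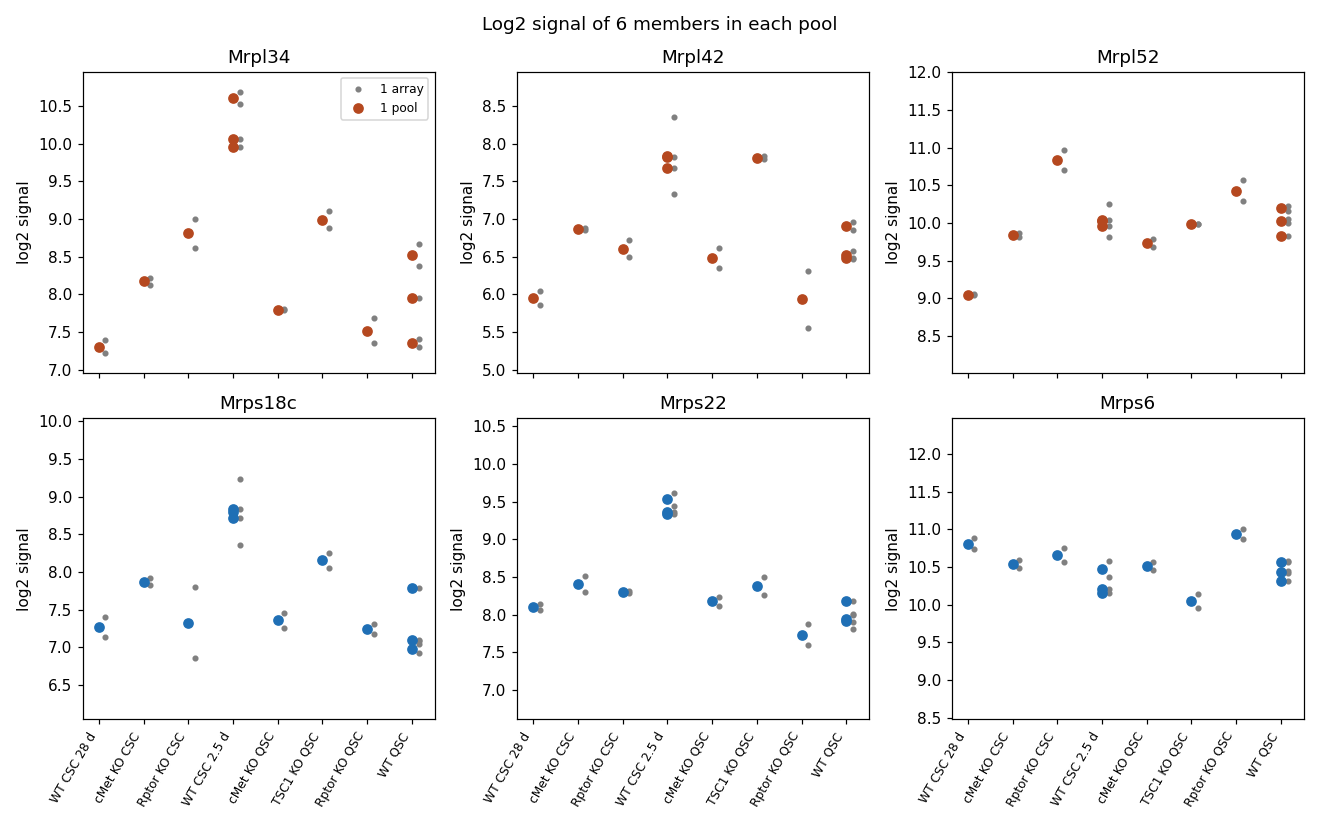
Log2 signal of 6 members in each pool (coloured points) and array (grey points), in 8 groups. Axes of all panels span the same 4 log2 units at different heights. Mrpl34, Mrps18c and Mrps22 are highest in WT CSC at 2.5 days, Mrpl42 is as high in TSC1 KO QSC (7.81) as there (7.67 to 7.84), and Mrpl52 and Mrps6 show no such step.

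In Rptor KO QSC no member was called against WT QSC either, with medians of -0.16 (large) and -0.11 (small), with 0.0358% of all genes called higher and 0.0860% lower. The difference was above 0 in 15 large and 8 small subunit genes, against 49.6% of all genes. At an unadjusted p under 0.05, 6 large and 3 small subunit genes were lower and 0 large and 1 small subunit gene higher, against 7.25% and 4.02% of all genes. Mrpl18 had 6.71 in Rptor KO QSC, against 7.63, 7.38 and 7.71 in WT QSC (-0.87 ± 0.21, SE, adjusted p = 0.18). Mrpl36, a relative of bacterial L36, had 7.52, against 8.43, 7.96 and 8.42 (-0.75 ± 0.22), and Mrps14 had 7.11, against 7.63, 7.77 and 7.77 (-0.61 ± 0.18). These 3 lay below all WT QSC pools without passing. Mrps28 (-0.46) was next, and Mrpl22 (0.57), Mrpl52 (0.41), Mrps6 (0.50) and Mrps35 (0.27) were at the high end. Proliferation markers were lower in the same pool, 4 of 9 called (median -1.19), and their part was not tested.

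Set directly against each other, TSC1 KO QSC exceeded Rptor KO QSC in 40 of 48 large and 24 of 29 small subunit genes, against 54.4% of all genes. The medians were 0.36 and 0.46, against 0.05 for all genes. The threshold was passed by 3 large and no small subunit genes, all higher, against 1.26% of all genes higher and 0.287% lower. Mrpl42 had 7.81 in TSC1 KO QSC, against 5.93 in Rptor KO QSC (1.88 ± 0.26, SE, adjusted p = 0.0177), and the 2 arrays of the Rptor KO QSC pool read 6.31 and 5.55. Mrpl36 had 9.03, against 7.52 (1.51 ± 0.27, adjusted p = 0.0383), and Mrpl18 had 8.04, against 6.71 (1.33 ± 0.26, adjusted p = 0.0456). Mrps14 (1.08, adjusted p = 0.0533) and Mrps21 (1.16, adjusted p = 0.0906) came close, and Mrps6 (-0.89), Mrps25 (-0.27), Mrpl23 (-0.50) and Mrpl52 (-0.44) were at the low end.

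The count of 3 large subunit genes was 0 without WT CSC pool 2 or 3, 1 without WT CSC pool 1 and 5 without WT QSC pool 2. Each of these groups is 1 pool, so genotype and pool cannot be told apart. Fibre markers (median 1.06, 1 of 10 called) and proliferation markers (median 1.10, 4 of 9 called) were also higher in TSC1 KO QSC than in Rptor KO QSC, and their part was not tested. Cytosolic ribosomal proteins went the other way (median -0.38), with 1 of 60 called, higher.

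cMet KO QSC lay near WT QSC. No member was called, with medians of 0.01 (large) and -0.02 (small) and differences between -0.32 (Mrpl11) and 0.36 (Mrpl32), and 0% of all genes were called in either direction. The difference was above 0 in 25 large and 12 small subunit genes, against 54.7% of all genes. No member passed an unadjusted p under 0.05, against 1.17% of all genes higher and 0.158% lower. The median of the large subunit was below 0 (-0.02) after either scaling of the arrays. Mrpl23 (-0.29), Mrpl50 (0.29), Mrps33 (-0.28), Mrps36 (-0.22), Mrps18b (0.29) and Mrps22 (0.16) marked the ends in the other places.

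**Figure D5:**
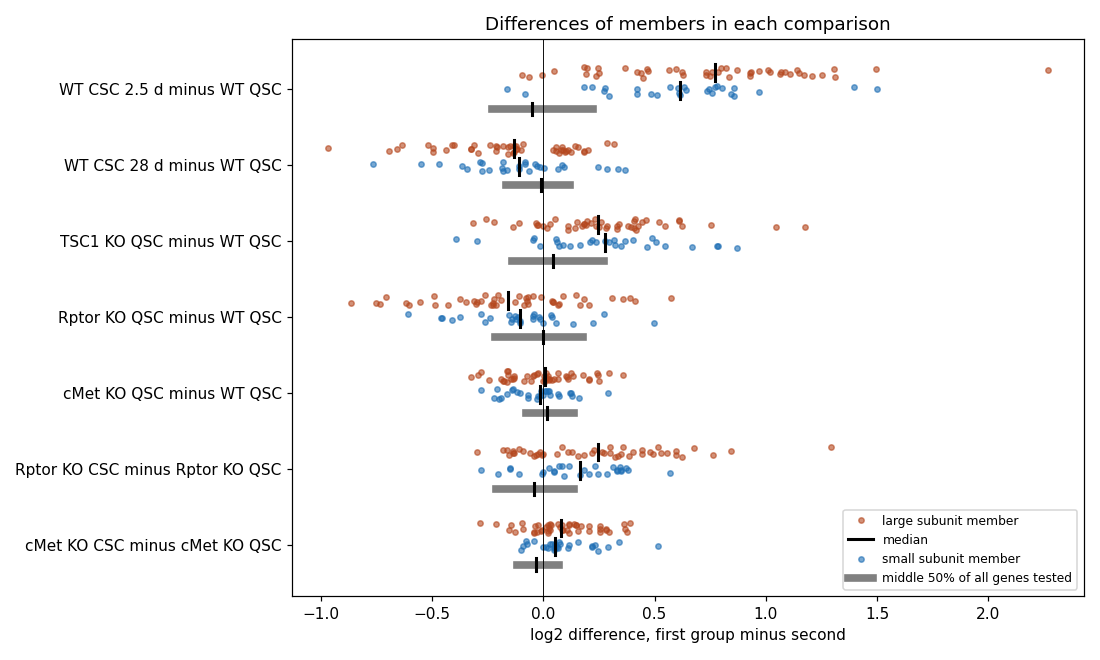
Log2 differences of large (orange) and small (blue) subunit genes in 7 comparisons, named at the left as first group minus second. Black ticks are medians and grey bars the middle 50% of all genes tested. The medians are 0.77 and 0.61 for WT CSC at 2.5 days minus WT QSC and between -0.16 and 0.28 in the other 6. The first 5 comparisons share the WT QSC pools.

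The response to a distant injury was also measured in the Rptor KO. Rptor KO CSC exceeded Rptor KO QSC by a median of 0.25 (large) and 0.16 (small), and no member was called, with 0.258% of all genes called higher and 0% lower. The difference was above 0 in 32 of 48 large and 22 of 29 small subunit genes, against 43.5% of all genes. At an unadjusted p under 0.05, 6 large and 1 small subunit genes were higher, against 3.09% of all genes. Mrpl34 had 8.81 in Rptor KO CSC, against 7.52 in Rptor KO QSC (1.29 ± 0.49, SE, adjusted p = 0.864). Mrpl36 had 8.37, against 7.52 (0.85 ± 0.27), and Mrps22 8.30, against 7.73 (0.57 ± 0.23). Mrps18c had 7.33, against 7.25, with arrays of 7.80 and 6.85 in the CSC pool. Mrps30 (0.38) was next highest in the small subunit, and Mrpl17 (-0.30), Mrpl24 (-0.18), Mrps6 (-0.28) and Mrps9 (-0.20) were lowest.

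Proliferation markers had a median difference of 1.86 in that comparison, 5 of 9 called higher, beside 2.05 in WT. Macrophage markers were all 10 above 0 (median 1.57, 0 called). Over all listed macrophage markers on the array, Adgre1 and Mrc1 below the filter included, the median was 8.40 in the Rptor KO CSC pool. It was 6.90 in Rptor KO QSC and 6.52 to 7.20 in WT QSC. Adgre1, a macrophage gene below the filter, had 8.18 in Rptor KO CSC and 5.70 to 6.71 in the other pools. Their part in the members' values was not tested.

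Minus the WT response, the Rptor KO response had medians of -0.54 (large) and -0.43 (small), against -0.02 for all genes. No member was called, and neither was any other gene (0% in either direction). At an unadjusted p under 0.05, 13 large and 8 small subunit genes were lower and none higher, against 2.91% of all genes lower. Mrpl11 (-1.40 ± 0.32, SE, adjusted p = 0.462), Mrpl22 (-1.20 ± 0.49), Mrps18c (-1.42 ± 0.41) and Mrps35 (-1.01 ± 0.30) were lowest. Mrpl52 (0.41), Mrpl48 (0.13), Mrps14 (0.13) and Mrps28 (0.08) were highest.

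Rptor KO CSC was lower than WT CSC at 2.5 days in 14 large and 4 small subunit genes, with none higher, against 2.97% of all genes lower and 0.924% higher. The medians were -0.66 and -0.60. Mrpl18 had 7.47 in Rptor KO CSC, against 9.18, 8.87 and 9.16 in WT CSC (-1.60 ± 0.21, SE, adjusted p = 0.0106). Mrpl11 had 7.59, against 8.94, 8.91 and 9.15 (-1.41 ± 0.23, adjusted p = 0.0168), and Mrps22 had 8.30, against 9.53, 9.33 and 9.36 (-1.11 ± 0.19, adjusted p = 0.0199). Each lay more than 1 log2 unit below all WT CSC pools. The other small subunit genes called were Mrps18c (-1.46), Mrps23 (-0.97) and Mrps5 (-0.97). Mrpl52 went the other way, at 10.83 in Rptor KO CSC, against 10.03, 10.04 and 9.96 (0.82 ± 0.19, adjusted p = 0.0506), with Mrpl30 (0.25), Mrps6 (0.38) and Mrps18b (-0.05) next at the high end. Without WT CSC pool 1, 2 or 3 the large subunit count was 4, 2 and 0 and the small subunit count 0 each time, and without WT QSC pool 2 the small subunit count was 8. In the same comparison 9 of 10 macrophage markers were called higher (median 1.85) and 6 of 9 proliferation markers lower (median -1.30). Their part was not tested.

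In the cMet KO no member was called between CSC and QSC, and none passed an unadjusted p under 0.05. The medians of cMet KO CSC minus cMet KO QSC were 0.08 (large) and 0.05 (small), against -0.03 for all genes. The difference was above 0 in 34 of 48 large and 23 of 29 small subunit genes, against 40.8% of all genes. Of all genes 0% were called in either direction, with 0.487% higher and 0.0502% lower at an unadjusted p under 0.05. Mrpl34 had 8.17 in cMet KO CSC, against 7.80 in cMet KO QSC (0.37 ± 0.49, SE), and Mrps18c 7.87, against 7.36 (0.52 ± 0.35). Mrpl42 (0.39), Mrps33 (0.34), Mrpl9 (-0.29), Mrpl43 (-0.21), Mrps30 (-0.10) and Mrps23 (-0.09) marked the other ends. Proliferation markers had a median difference of 0.20, with 0 called.

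Minus the WT response, the cMet KO response had medians of -0.67 (large) and -0.56 (small), with no member called and 0.0358% of all genes called higher and 0.122% lower. At an unadjusted p under 0.05, 20 large and 7 small subunit genes were lower and none higher, against 5.77% of all genes lower. Mrpl34 (-1.89 ± 0.57, SE, adjusted p = 0.281), Mrpl18 (-1.38 ± 0.30, adjusted p = 0.124), Mrps22 (-1.16 ± 0.27, adjusted p = 0.144) and Mrps18c (-0.98 ± 0.41) were lowest. Mrpl24 (0.38), Mrpl52 (0.11), Mrps6 (0.19) and Mrps28 (0.12) were highest.

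cMet KO CSC was lower than WT CSC at 2.5 days in 17 large and 4 small subunit genes, with none higher, against 3.35% of all genes lower and 3.40% higher. The medians were -0.71 and -0.58. Mrpl34 had 8.17 in cMet KO CSC, against 10.60, 9.96 and 10.06 in WT CSC (-2.04 ± 0.40, SE, adjusted p = 0.0224). Mrpl18 had 7.72, against 9.18, 8.87 and 9.16 (-1.35 ± 0.21, adjusted p = 0.00775), and Mrpl11 had 7.57, against 8.94, 8.91 and 9.15 (-1.43 ± 0.23, adjusted p = 0.00906). In all 3 genes the cMet KO CSC pool lay more than 1 log2 unit below WT CSC. The small subunit genes called were Mrps22 (8.40, against 9.33 to 9.53 in WT CSC), Mrps35 (-1.07), Mrps5 (-0.83) and Mrps23 (-0.73), while Mrps6 (0.26), Mrps18b (0.06), Mrpl32 (0.26) and Mrpl24 (0.20) were at the high end. Without WT CSC pool 1, 2 or 3 the large subunit count was 5, 6 and 3 and the small subunit count 0 each time, and without WT QSC pool 2 the small subunit count was 11. Endothelial markers were called higher in 9 of 12 (median 1.77) and proliferation markers lower in 8 of 9 (median -1.60), and their part was not tested. The comparisons with WT CSC at 2.5 days share its 3 pools, so their values are given side by side only.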

How the data were processed

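The deposited log2 values are probeset signals from RMA, run by the authors in Expression Console as the submitters' processing notes state. Its version, and which arrays were normalized together, is not given in the sources used here. RMA compresses differences of dim probesets and fixes the overall distribution of each array, so that a change shared by all genes cannot be seen. No scanner files were used.

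Of 35556 probesets, 21789 have 1 platform symbol. The brightest probeset over the 12 pools stood for a gene, and a pool by the mean of its arrays. Genes with a mean below the 30th percentile (log2 6.454) were left out. In R 4.3.3, limma 3.58.1 (lmFit, then eBayes) estimated 8 group means over 13956 genes, with 13 comparisons and Benjamini-Hochberg adjustment over all genes. Only the 6 pools of replicated WT groups give residual degrees of freedom, 4 in all (prior 5.01). The median SE was 0.154 between these, 0.218 for a single pool against either and 0.267 between single pools. The number of pools limits the precision. The fit was tested on simulated data. Members and lists were chosen with earlier results of these data known. Genes were named by a rule: the largest, smallest and lowest differences per subunit in WT CSC at 2.5 days, the brightest and dimmest, the ends of each other comparison, calls where fewer than 6 passed, and S18 paralogues, Mrps30 and Mrps36. Figures were drawn with matplotlib 3.10.9. The alternatives were quantile normalization again, centring of arrays, no filter, a stricter filter at the 50th percentile, the mean of a gene's probesets, trend and robust eBayes, every array with pools as a random block, first arrays only, each WT pool left out, the replicate number as a block, and subunits placed by structure.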

Additional observations from a re-analysis of the deposited data

Results flagged for a closer look

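For 13 pairs of a member and a knockout, all WT CSC pools at 2.5 days lay above all WT QSC pools, while both arrays of the knockout's CSC pool lay below both arrays of its QSC pool. Of all genes, 18.7% had the WT CSC pools above the WT QSC pools, and the arrays of the CSC pool lay below those of the QSC pool in 28.2% (Rptor KO) and 36.2% (cMet KO). Among the 77 members they lay below in 6 (Rptor KO) and 9 (cMet KO). The share of all genes that meet both conditions was not counted. Each knockout value rests on 1 pool a group, and none of the differences between knockout and WT response passed the threshold (limma, Benjamini-Hochberg).

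In the Rptor KO, CSC minus QSC was -0.0924 for Mrpl11, -0.111 for Mrpl16, -0.298 for Mrpl17, -0.203 for Mrps9 and -0.151 for Mrps35, against WT values of 1.31, 0.78, 0.19, 0.48 and 0.86 in the same order. The difference from the WT response was -1.40 ± 0.32 for Mrpl11 (SE, adjusted p = 0.462) and -1.01 ± 0.30 for Mrps35 (adjusted p = 0.735).

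In the cMet KO, CSC minus QSC was -0.0983 for Mrpl2, -0.286 for Mrpl9, -0.144 for Mrpl16, -0.215 for Mrpl43, -0.128 for Mrpl49, -0.0237 for Mrpl55, -0.0755 for Mrps9 and -0.0936 for Mrps23. The WT values were 0.82, 0.73, 0.78, 0.97, 0.47, 0.62, 0.48 and 0.76 in the same order. The difference from the WT response was -1.02 ± 0.26 for Mrpl9 (SE, adjusted p = 0.181) and -0.85 ± 0.24 for Mrps23 (adjusted p = 0.245). Mrpl16 and Mrps9 appear under both knockouts, whose responses are set against the same WT pools.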

How the results depend on the processing

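The number of pools sets the limit: all 4 residual degrees of freedom come from 6 WT pools, and a single pool carries its own deviations into each of its comparisons. For WT CSC at 2.5 days against WT QSC, 45 to 55 members were called in the alternatives that kept all pools or left out a WT QSC pool. Without WT CSC pool 1, 2 and 3 there were 33, 35 and 31. Over all genes 1233 to 1965 were called higher in the former alternatives (1483 in the main fit). Without WT CSC pool 1, 2 and 3 the calls over all genes were 854, 880 and 837. Leaving out 1 WT pool gave 23 to 32 large and 8 to 16 small subunit genes higher, with 8 without WT CSC pool 3. Deviations of same-numbered WT pools correlated at 0.32, -0.03 and -0.03. With 3 pools a group, these values cannot show whether replicate numbers pair the pools. With the replicate number as a block, 33 large and 16 small subunit genes were called, 47 members shared with the fit without it.

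Leaving out 1 WT pool gave 12 to 28 large and 2 to 16 small subunit genes lower for 28 days against 2.5 days, 0 to 1 large subunit genes higher for TSC1 KO QSC against WT QSC, and 0 to 5 large and 0 to 1 small higher for TSC1 KO QSC against Rptor KO QSC. For Rptor KO CSC against WT CSC it gave 0 to 1 large higher, 0 to 19 large lower and 0 to 8 small lower, and for cMet KO CSC against WT CSC 3 to 19 large and 0 to 11 small lower.

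Fitting every array, with pools as a random block, gave 1 large subunit gene lower for 28 days against WT QSC; 7 large higher, 2 small higher and 1 small lower for TSC1 KO QSC against Rptor KO QSC; 1 large higher and 11 small lower for Rptor KO CSC and 8 small lower for cMet KO CSC, both against WT CSC; and 1 large (Rptor KO), 7 large and 1 small (cMet KO) lower in the differences of responses. For TSC1 KO QSC against Rptor KO QSC, no filter or first arrays gave 1 large subunit gene higher, and quantile normalization, centring, trend and robust eBayes or first arrays gave 1 small subunit gene higher. Centring moved the large subunit median there to 0.47, with the median of all genes at 0.16 instead of 0.05. Quantile normalization gave 1 large subunit gene higher in Rptor KO CSC against WT CSC, and trend and robust eBayes 1 large lower in the cMet KO response. In WT CSC at 2.5 days against WT QSC the sign turned without WT CSC pool 1 for Mrpl24 (-0.191 to 0.0151 over the pools left out) and Mrpl48 (-0.12 to 0.0189). It turned for Mrpl52 with centring (0.026), without WT QSC pool 1 and without WT CSC pool 3 (-0.104 to 0.0828 over the pools left out). The cause was not tested.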
